A study of Mus musculus with 4 samples.

Results

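The genes described here are 45 listed interferon-stimulated genes, the transcripts that cells make when an interferon or a viral nucleic acid has been sensed. They were taken by symbol from the gene names of the deposited matrices, where 43 of the 45 matched among 32285 genes. The other two, Mx1 and Mx2, were not analysed here. Each gene was read in 4 single-cell RNA libraries of crypts from the mouse small intestine, where the stem cells and Paneth cells of the epithelium sit. The libraries were 2D-1 and 2D-2, labelled 2D, and 0D-1 and 0D-2, labelled 0D; the series states that epithelium was sampled before and after sleep deprivation, and the labels do not spell out D. The labels give no genotype, strain, sex or age, and the crypts of all 4 libraries were released with EDTA and prepared with the same kind of droplet kit. Whether each library is a separate animal is not stated, so p-values measure the spread among the 4 libraries alone, and that spread may be technical.

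Interferons bind receptors on the cell surface, and the Jak kinases attached to these receptors phosphorylate Stat proteins. With Irf9, Stat2 acts in a complex that binds interferon-stimulated response elements in promoters and switches on genes that sense, bind or degrade foreign RNA. In the intestinal epithelium, interferon lambda is the interferon best known for driving this antiviral program, and interferon gamma from lymphocytes also induces the GTPases and the antigen-presentation genes.

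After filtering, 7025 cells of 2D-1, 7988 of 2D-2, 7586 of 0D-1 and 7132 of 0D-2 were kept, with 93090534 to 113758758 UMIs per library. A UMI (unique molecular identifier) marks 1 captured transcript molecule, and levels are given as CPM, the UMIs of a gene per 1000000 UMIs of the library or cell class. Library 2D-1 stood apart from the other 3 in the genes described here, so results are given with and without it. Its median mitochondrial share of UMIs was also the highest, at 6.25%, against 3.71% in 2D-2, 4.48% in 0D-1 and 3.96% in 0D-2. Pairs of libraries shared 20 to 32 cell barcodes among the 9363 to 10024 deposited in each. Cells were gated into 7 epithelial classes from marker genes, none of which is an interferon-stimulated gene of the list. The markers define the gate, so their levels describe the classes and do not test them. Lyz1, the Paneth lysozyme, reached 44960 CPM in Paneth-like cells and at most 867 CPM in the other 6 classes. Dclk1, a tuft cell kinase, reached 1232 CPM in tuft-like cells and at most 5.77 CPM in the other 6. Other markers were shared between classes. Tubb5, a transit-amplifying marker, had 489 CPM in transit-amplifying-like and 515 CPM in stem-like cells. Fabp2, an enterocyte marker, had 1608 CPM in enterocyte-like and 1333 CPM in goblet-like cells. Spink4, a goblet marker, had 30600 CPM in goblet-like and 19680 CPM in Paneth-like cells. Marker scores lay within 0.1 of a gate boundary in 1096 cells of 2D-1, 1147 of 2D-2, 1063 of 0D-1 and 989 of 0D-2.

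Promoter windows from RefSeq (build GRCm38.p6) were available for 35 of the 43 genes. They run from 250 bases before to 50 bases after a transcript start. The letters GAAANNGAAA or TTTCNNTTTC, the 2 strands of a sequence like the interferon-stimulated response element, were present in windows of 21 of the 35 genes (60%), against 3.99% of the 27025 genes with a window. The palindrome TTCNNNGAA, like the site of Stat dimers, was present for 9 of the 35 (25.7%), against 9.55% of all genes. The stretches below lie wholly before the transcript start and belong to members whose levels are described next: Ifit1, Ifit3 and its near copy Ifit3b, Isg15 and Bst2 with the first motif, and Irf1, which behaved differently, with the second. Capitals mark the letters matching the motif named for each gene.
Ifit1 (chr19:34640759-34640858, + strand): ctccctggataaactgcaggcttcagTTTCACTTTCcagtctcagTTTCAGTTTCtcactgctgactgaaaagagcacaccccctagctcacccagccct
Ifit3 (chr19:34583349-34583448, + strand): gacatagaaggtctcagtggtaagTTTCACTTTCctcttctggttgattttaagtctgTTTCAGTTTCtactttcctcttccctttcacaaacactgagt
Ifit3b (chr19:34607747-34607846, + strand): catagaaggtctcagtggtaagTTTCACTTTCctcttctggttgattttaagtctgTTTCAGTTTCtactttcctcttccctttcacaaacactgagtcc
Isg15 (chr4:156200829-156200928, - strand): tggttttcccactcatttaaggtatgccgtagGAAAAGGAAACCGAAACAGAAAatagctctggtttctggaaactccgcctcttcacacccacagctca
Bst2 (chr8:71537523-71537622, - strand): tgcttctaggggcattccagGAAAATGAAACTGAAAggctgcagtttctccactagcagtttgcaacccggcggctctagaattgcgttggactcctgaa
Irf1 (chr11:53769884-53769983, + strand): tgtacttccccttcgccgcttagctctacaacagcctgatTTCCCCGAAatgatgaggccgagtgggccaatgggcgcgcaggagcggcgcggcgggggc
In Isg15 and Bst2 the matches overlap one another. The Bst2 stretch also holds 1 match of the second motif, which overlaps the capitals and begins in the lower case letters before them. A match is a description of the letters and was not tested for binding.

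With all kept cells of a library summed, the 43 genes together held 2705 CPM in 2D-1 and 779 CPM in 2D-2, against 863 CPM in 0D-1 and 905 CPM in 0D-2. In bulk sums like these, fewer cells of a type and less RNA per cell cannot be told apart. Paneth-like cells, the class with the lowest summed level of these genes, numbered 1026 in 2D-1 and 1393 in 2D-2. In 0D-1 and 0D-2 they numbered 442 and 477. A larger share of such cells lowers the level in all cells, and its part in the values of 2D-2 was not tested. The 2D libraries averaged 1742 ± 1362 CPM and the 0D libraries 884 ± 29.7 CPM (SD, n = 2 each). The summed level of 2D-1 was 3.06 times the 0D mean and that of 2D-2 was 0.881 times it, so 1 library of the 2D pair was high and the other lay just below both 0D libraries. On a scale of log2(CPM + 1), the difference of the median member from the mean of 0D was 1.66 in 2D-1 and -0.11 in 2D-2. The median over all 15454 genes tested was -0.01 in 2D-1 and -0.14 in 2D-2.

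**Figure D1:**
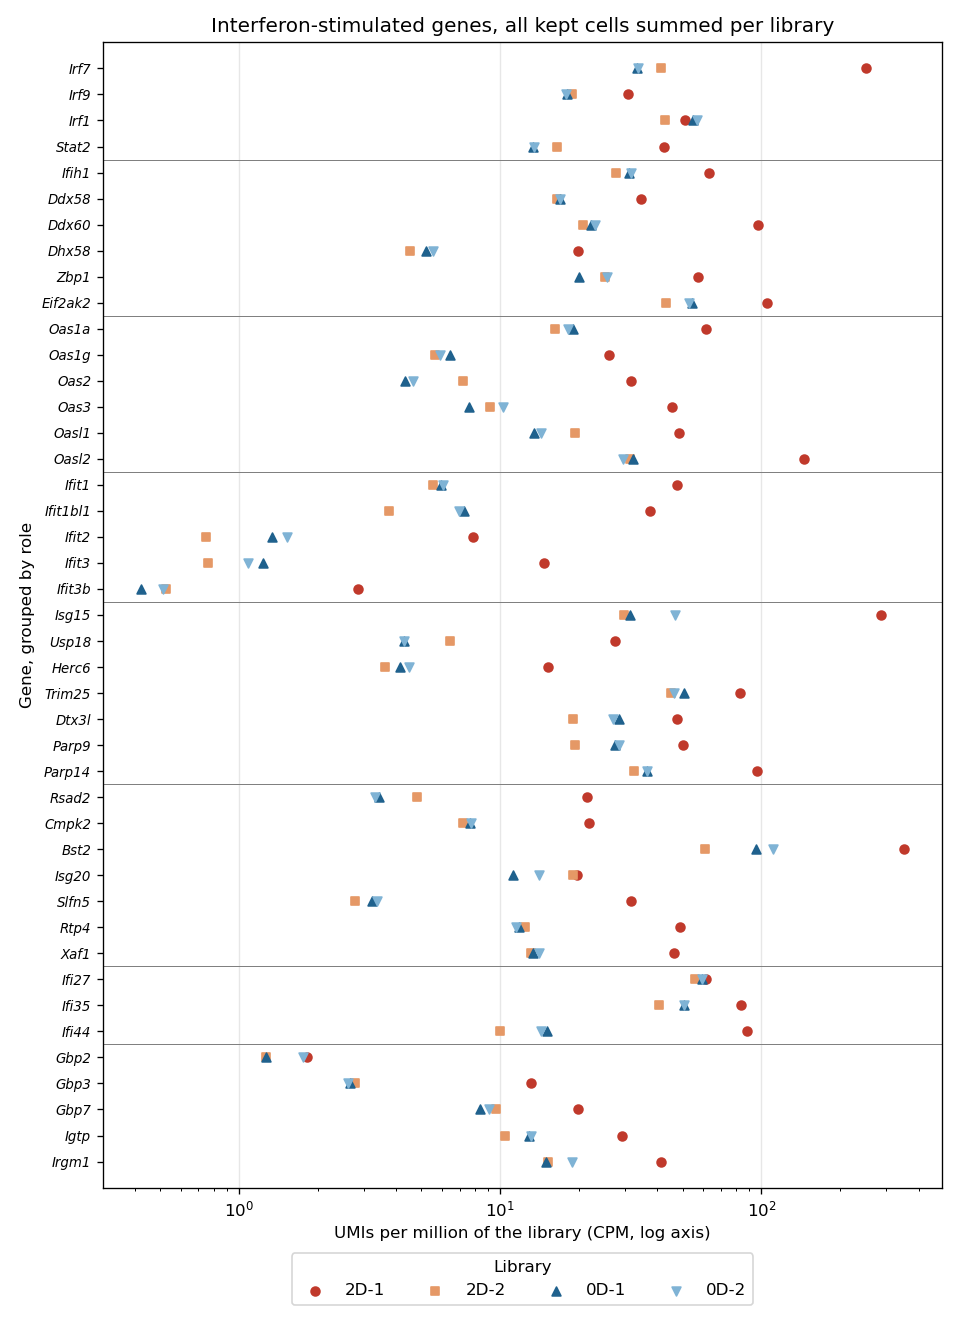
Level of each of the 43 interferon-stimulated genes in the 4 libraries, in CPM (log axis), with all kept cells of a library summed and genes grouped by role. Points of 2D-1 lie to the right of both 0D points for 42 of the 43 genes, the exception being Irf1, while 2D-2 lies among or beside the 0D points.

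Library 2D-1 was above both 0D libraries for 42 of the 43 genes, where 38.9% of all genes tested were, and at least 2-fold over the mean of 0D (with 1 CPM added to both) for 31 of 43, where 0.647% of all genes were. These 31 genes made up 31% of the 100 genes that passed this fold in 2D-1. Library 2D-2 was above both 0D libraries for 12 of the 43 (23.8% of all genes) and below both for 27 (65.3% of all genes). No member reached a 2-fold difference in either direction in 2D-2, where 0.214% of all genes were at least 2-fold above and 0.854% at least 2-fold below the 0D mean. Both 2D libraries were above both 0D libraries for 12 genes (16.3% of all genes), and both were below for 1, Irf1 (38.2% of all genes).

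The 2 libraries of each group were compared with edgeR's quasi-likelihood test on the summed counts, adjusted over all genes by Benjamini-Hochberg. None of the 43 genes passed an adjusted p of 0.05, and neither did any other of the 15454 genes (0%). The smallest adjusted p among the members was 0.151, for Isg20, and 13 of the 43 had an unadjusted p under 0.05, as did 20.3% of all genes. DESeq2 called 3 members higher in 2D (Isg20, Oasl1 and Stat2), where it called 2.89% of all genes higher and 2.02% lower. With no filter on low counts edgeR called 0 in all cells (0%). With 2D-2 left out, 40 of the 43 were higher in 2D (6.28% of all genes) and 0 lower (5.77%). With 2D-1 left out, 10 were higher (12.8% of all genes), namely Gbp7, Irf7, Irf9, Isg20, Oas2, Oasl1, Rsad2, Rtp4, Stat2 and Usp18, and 6 were lower (12.8% of all genes), namely Bst2, Dtx3l, Ifi44, Ifit1bl1, Ifit2 and Parp9. Each of these reduced fits has a single 2D library, which is assumed to vary like the 0D pair. Dtx3l, Ifit2 and Parp9 were lower in these sums of all cells, which mix the classes, but were called lower in no single class. Counts within a class are also smaller.

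The transcription factors carry the interferon signal to DNA or amplify it. Irf7, which drives further interferon production, had 251 CPM in 2D-1 and 41.5 CPM in 2D-2, against 33.3 CPM in 0D-1 and 33.7 CPM in 0D-2. Irf9, the DNA-binding subunit that partners Stat2, had 30.8 and 18.9 CPM in 2D-1 and 2D-2, against 18.1 and 17.9 CPM in 0D-1 and 0D-2. For both genes the groups did not overlap, and for Irf7 the gap between the 2D libraries was far wider than the gap between 2D-2 and 0D. Its edgeR log2 difference was 2.18 ± 0.75 (SE, adjusted p = 0.21). Irf1, another factor of the interferon regulatory family, had 51.1 and 42.9 CPM in 2D-1 and 2D-2, against 54.9 and 56.6 CPM in 0D-1 and 0D-2, so that both 2D libraries were low. Its log2 difference was -0.14 ± 0.07 (SE, edgeR adjusted p = 0.36). Among the classes, both 2D libraries were below both 0D libraries for Irf1 only in transit-amplifying-like (20.9% of all genes) and enteroendocrine-like cells (17.2%). Stat2, the remaining factor, stood at 3.15 times the 0D mean in 2D-1 and 1.24 times in 2D-2.

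The nucleic acid sensors detect viral RNA or DNA in the cell. Eif2ak2, the kinase PKR that halts translation on double-stranded RNA, had 105 and 43.0 CPM in 2D-1 and 2D-2, against 54.2 and 53.0 CPM in 0D-1 and 0D-2. Ddx60, a helicase that assists RNA sensing, had 97.4 and 20.7 CPM in 2D-1 and 2D-2, against 22.3 and 23.1 CPM in 0D-1 and 0D-2. Ifih1, the long double-stranded RNA sensor MDA5, had 62.9 and 27.8 CPM in 2D-1 and 2D-2, against 31.2 and 31.8 CPM in 0D-1 and 0D-2. For all 3 the 2D libraries lay on opposite sides of the 0D pair. Ddx58 (RIG-I), Dhx58 (LGP2) and Zbp1, the other sensors, stood at 2.05, 3.70 and 2.51 times the 0D mean in 2D-1 and at 0.97, 0.84 and 1.10 times in 2D-2.

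The OAS family makes oligoadenylates that activate an RNA-degrading enzyme, though not every member makes that product. Oasl2 had 146 and 31.5 CPM in 2D-1 and 2D-2, against 32.1 and 29.6 CPM in 0D-1 and 0D-2. Oas1a had 61.1 and 16.2 CPM in 2D-1 and 2D-2, against 19.0 and 18.2 CPM in 0D-1 and 0D-2. Oasl1, which in the mouse restrains translation of Irf7, had 48.3 and 19.4 CPM in 2D-1 and 2D-2, against 13.5 and 14.3 CPM in 0D-1 and 0D-2. Of these 3, the groups did not overlap for Oasl1 alone, and 2D-2 fell inside the 0D range for Oasl2 and below it for Oas1a. The 6 family members in the list were at 3.28 to 7.04 times the 0D mean in 2D-1, Oas2 being the highest. In 2D-2 they were at 0.87 to 1.61 times, again with Oas2 the highest. Oas1a and Oas1g are close copies on chromosome 5, with 8642 bases between them, and reads that match both may have been split or dropped in counting.

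The IFIT family binds foreign RNA and blocks its translation. Its 5 listed genes lie together on chromosome 19. Ifit1 had 47.5 and 5.52 CPM in 2D-1 and 2D-2, against 5.92 and 6.04 CPM in 0D-1 and 0D-2. Ifit1bl1, an Ifit1-like gene, had 37.4 and 3.77 CPM in 2D-1 and 2D-2, against 7.28 and 6.98 CPM in 0D-1 and 0D-2. Ifit3, a partner of Ifit1 proteins, had 14.7 and 0.763 CPM in 2D-1 and 2D-2, against 1.24 and 1.08 CPM in 0D-1 and 0D-2. In all 3 genes 2D-1 was high and 2D-2 was below both 0D libraries. Ifit3 had the highest ratio of 2D-1 to the 0D mean of all 43 genes, 12.7, with an edgeR log2 difference over both 2D libraries of 2.78 ± 1.20 (SE, adjusted p = 0.28). Ifit2 and Ifit3b stood at 5.49 and 6.10 times the 0D mean in 2D-1 and at 0.52 and 1.12 times in 2D-2. Ifit3 and Ifit3b share nearly the same promoter letters above and are near copies, so their counts are uncertain individually.

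Isg15 is a ubiquitin-like protein that is attached to other proteins, and the listed modifiers attach it, remove it or add ubiquitin or ADP-ribose. Isg15 had 286 and 29.8 CPM in 2D-1 and 2D-2, against 31.5 and 46.8 CPM in 0D-1 and 0D-2. Parp14, an ADP-ribosyltransferase, had 95.9 and 32.4 CPM in 2D-1 and 2D-2, against 36.5 and 36.6 CPM in 0D-1 and 0D-2. Trim25, a ubiquitin ligase that activates RIG-I signalling, had 82.6 and 44.98 CPM in 2D-1 and 2D-2, against 50.7 and 46.4 CPM in 0D-1 and 0D-2. Again 2D-1 was the high library for all 3 and 2D-2 the low one. Isg15 also had the larger spread within 0D. Usp18, which removes Isg15 and dampens receptor signalling, stood at 6.40 times the 0D mean in 2D-1 and 1.5 times in 2D-2, and Herc6, a mouse ligase for Isg15, at 3.54 and 0.84 times. Dtx3l and Parp9, a ubiquitin ligase and its partner, stood at 1.72 and 1.79 times in 2D-1 and both at 0.69 times in 2D-2. They are transcribed away from each other on chromosome 16 from starts 681 bases apart, and their first exons overlap.

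Among the other antiviral effectors, Bst2, which tethers budding virus to the cell, had 351 and 60.7 CPM in 2D-1 and 2D-2, against 95.5 and 110.6 CPM in 0D-1 and 0D-2. Library 2D-1 was the high one, and 2D-2 was below both 0D libraries. Rtp4 had 48.9 and 12.4 CPM in 2D-1 and 2D-2, against 11.8 and 11.5 CPM in 0D-1 and 0D-2. Xaf1, an antagonist of a cell death inhibitor, had 46.2 and 13.1 CPM in 2D-1 and 2D-2, against 13.4 and 14.1 CPM in 0D-1 and 0D-2. The groups did not overlap for Rtp4, and they did for Bst2 and Xaf1. Slfn5, Rsad2 (viperin) and Cmpk2 stood at 9.59, 6.38 and 2.83 times the 0D mean in 2D-1 and at 0.84, 1.42 and 0.93 times in 2D-2. Isg20, an RNA exonuclease, was the member with the closest 2D libraries, at 19.6 CPM in 2D-1 and 19.05 CPM in 2D-2, against 11.2 CPM in 0D-1 and 14.1 CPM in 0D-2. Its edgeR log2 difference was 0.73 ± 0.13 (SE, adjusted p = 0.15).

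The 3 listed Ifi genes differed from one another. Ifi44 had 87.8 and 9.99 CPM in 2D-1 and 2D-2, against 15.1 and 14.4 CPM in 0D-1 and 0D-2. Ifi35, a partner of Nmi, had 83.7 and 40.6 CPM in 2D-1 and 2D-2, against 50.7 CPM in both 0D-1 and 0D-2. Ifi27, a small mitochondrial protein, had 61.5 and 55.8 CPM in 2D-1 and 2D-2, against 59.4 and 59.1 CPM in 0D-1 and 0D-2. It was 1.04 times the 0D mean in 2D-1, the lowest ratio after Irf1. Of the GTPases, which attack the vacuoles of intracellular microbes, Irgm1 had 41.2 and 15.2 CPM in 2D-1 and 2D-2, against 14.9 and 18.8 CPM in 0D-1 and 0D-2. Igtp had 29.2 and 10.4 CPM in 2D-1 and 2D-2, against 12.9 and 13.1 CPM in 0D-1 and 0D-2. Gbp7 had 19.8 and 9.60 CPM in 2D-1 and 2D-2, against 8.35 and 9.11 CPM in 0D-1 and 0D-2. Only for Gbp7 of these 3 did the groups not overlap. Gbp3 and Gbp2 stood at 5.0 and 1.20 times the 0D mean in 2D-1 and at 1.06 and 0.84 times in 2D-2. Igtp shares exon sequence with Irgm2 on the same strand, and Irf9 with Rnf31, so reads of these pairs may have been assigned to either.

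The same comparison was made within each gated class. Relative to the 0D mean, the summed level of the 43 genes was 4.41 times in 2D-1 and 1.16 times in 2D-2 in Paneth-like cells, which secrete antimicrobial peptides. It was 3.63 and 0.97 times in enterocyte-like (absorptive) cells, 3.62 and 0.97 times in stem-like cells and 3.51 and 1.00 times in goblet-like (mucus) cells. It was 3.34 and 1.19 times in tuft-like (chemosensory) cells, 3.23 and 0.97 times in dividing transit-amplifying-like cells and 2.68 and 0.95 times in hormone-making enteroendocrine-like cells. Library 2D-1 was thus high in all 7 classes, and 2D-2 was at 0.95 to 1.19 times the 0D mean. Goblet-like cells, for example, held 4192 CPM in 2D-1 and 1189 CPM in 2D-2, against 1188 CPM in 0D-1 and 1199.7 CPM in 0D-2. Paneth-like cells held 797 and 209 CPM in 2D-1 and 2D-2, against 179 and 182 CPM in 0D-1 and 0D-2. The 10 Paneth markers alone took 55.9% and 56.8% of the UMIs of this class in 2D-1 and 2D-2, against 60.5% and 60.6% in 0D-1 and 0D-2. This lowers the CPM of every other gene there, and more so in 0D. On the log2(CPM + 1) scale, the median of all genes tested in this class differed from 0D by 0.245 in 2D-1 and 0.088 in 2D-2. The median member differed by 1.70 and 0.10. In goblet-like cells the median gene differed by 0.202 in 2D-1.

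**Figure D2:**
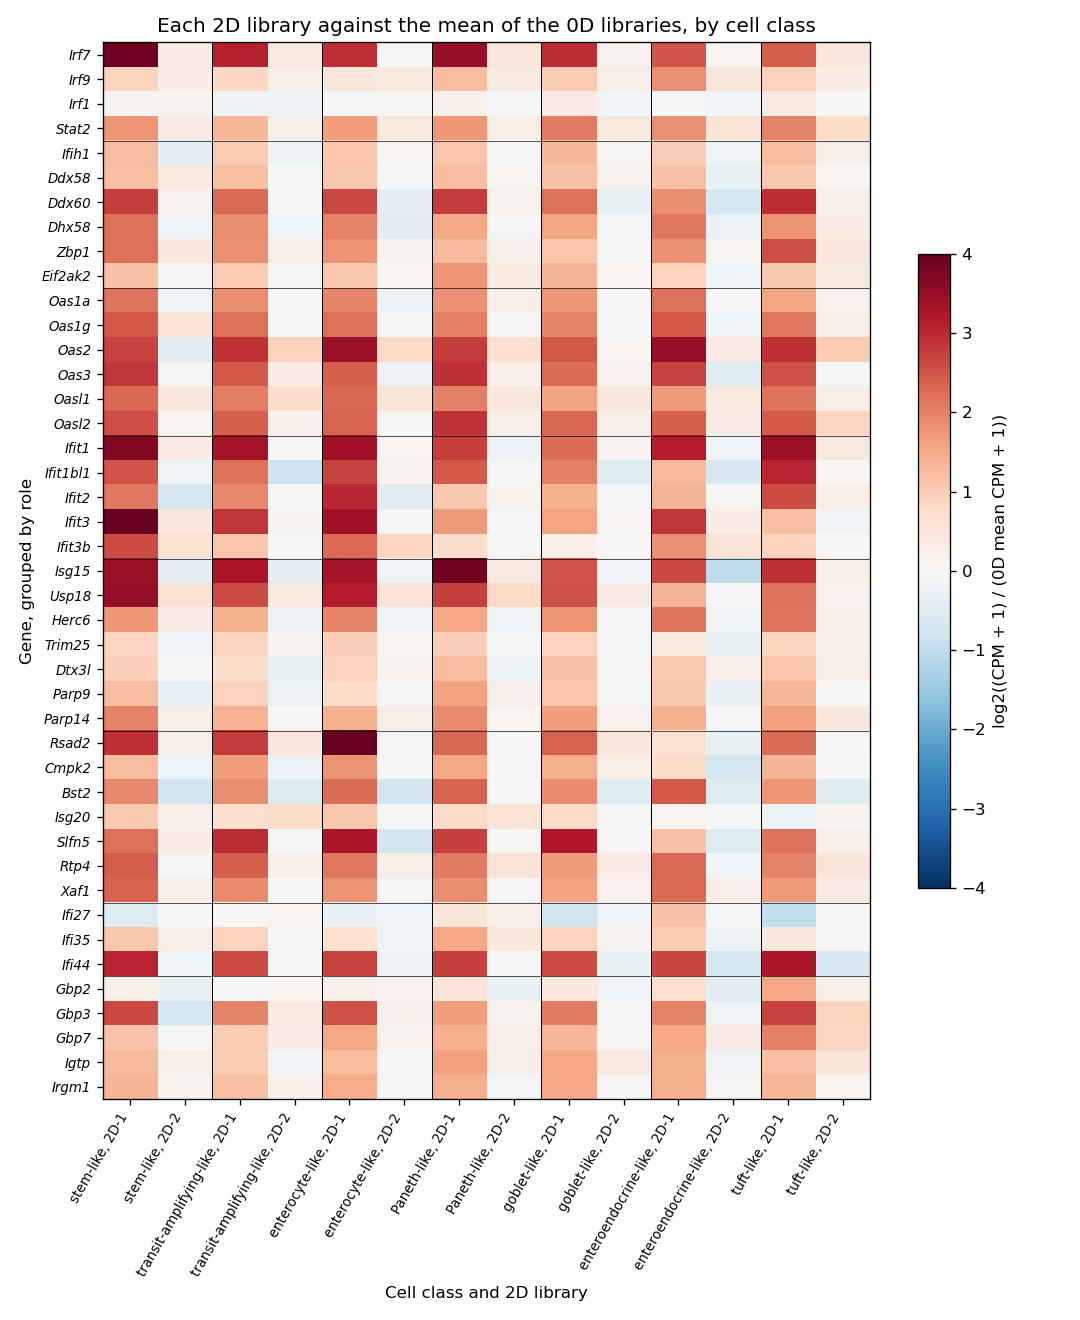
Log2 ratio of each 2D library to the mean of the 0D libraries, with 1 CPM added to both, for the 43 genes (rows, grouped by role) in 7 gated cell classes (pairs of columns, 2D-1 left of 2D-2). Columns of 2D-1 are red for most genes in every class, with 31 to 36 tested genes at least 2-fold up, and columns of 2D-2 are pale.

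By class, 2D-1 reached 2-fold over the mean of 0D for 36 of 42 members tested in goblet-like cells, where 1.84% of all genes tested did and 2D-2 reached it for 0 members (0.145%). In enterocyte-like cells 35 of 43 reached it in 2D-1 (1.37%) and 0 in 2D-2 (0.912%). In Paneth-like cells the counts were 34 of 38 (1.83%) and 0 (0.212%), and in dividing transit-amplifying-like cells 33 of 42 (0.899%) and 0 (0.528%). Stem-like cells had 32 of 37 (1.02%) and 0 (0.641%). Enteroendocrine-like cells had 32 of 39 (0.902%) and 0 (0.395%), and there Isg15 was at least 2-fold below 0D in 2D-2 (0.85%). Tuft-like cells had 31 of 37 (2.49%) and 1, Oas2 (0.787%). Members left out of these counts had too few UMIs in the class to be tested. Irf7 in stem-like cells had 202 and 15.9 CPM in 2D-1 and 2D-2, against 14.3 and 11 CPM in 0D-1 and 0D-2. Isg15 in enterocyte-like cells had 587 and 53.4 CPM in 2D-1 and 2D-2, against 54.8 and 63.1 CPM in 0D-1 and 0D-2. In both classes 2D-1 was the high library, and 2D-2 lay next to the 0D pair.

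The edgeR test over both libraries of each group called 0 members in each of the 7 classes, and these calls depended on the filter on low counts in 5 of them. In stem-like cells, where 0.134% of all genes passed, 25 members had an unadjusted p under 0.05 (12.4% of all genes) and DESeq2 called 0 (0.223%). With every gene kept, edgeR called 39 members higher in stem-like cells (1.88%). In Paneth-like cells 0.0177% of all genes passed, 27 members had an unadjusted p under 0.05 (6.49%), DESeq2 called 0 (0.0619%), and 34 were called with every gene kept (0.98%). In goblet-like cells these figures were 0% of genes, 16 members (8.04%), 0 by DESeq2 (0.194%) and 29 with every gene kept (0.86%). Enteroendocrine-like cells had 0.241% of genes, 26 members (7.23%), 0 by DESeq2 (0.163%) and 33 with every gene kept (0.883%). Tuft-like cells had 0.226% of genes, 28 members (7.22%), 0 by DESeq2 (0.129%) and 25 with every gene kept (0.625%). In enterocyte-like cells, with 0.184% of genes and 37 members under an unadjusted p of 0.05 (13.3%), DESeq2 called Ifit3b (0.553%) and 0 members were called with every gene kept (0%). Dividing transit-amplifying-like cells had 0% of genes, 22 members (10.2%), 0 by DESeq2 (0.379%) and 0 with every gene kept (0.134%).

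The calls in single classes also turned on which 2D library was kept. In a fit with a single 2D library, a gene can pass the filter on low counts through 1 library. Without 2D-2, 43 members were tested in stem-like cells, against 37 with both 2D libraries. The numbers were 42 against 38 in Paneth-like, 42 against 39 in enteroendocrine-like and 39 against 37 in tuft-like cells. A member may thus be counted without 2D-2 only because it was high in 2D-1. Without 2D-2, edgeR called 40 members higher in dividing transit-amplifying-like cells (6.43% of all genes), 40 in enterocyte-like (4.85%), 39 in stem-like (1.64%) and 39 in goblet-like cells (21%). The tuft-like cells had 34 (1.82%), the Paneth-like cells 38 (1.89%) and the enteroendocrine-like cells 35 (1.38%). Without 2D-1 it called 5 higher in goblet-like cells (3.64%), namely Igtp, Oasl1, Rsad2, Rtp4 and Stat2, 4 in dividing transit-amplifying-like cells (6.8%), namely Irf7, Isg20, Oas2 and Oasl1, and Oas2 and Oasl2 in tuft-like cells (0.431%). It called 0 higher in stem-like (0.943%), enterocyte-like (1.42%), Paneth-like (0.191%) and enteroendocrine-like cells (0.683%). It called Bst2 alone lower in stem-like (0.544%) and enterocyte-like cells (0.705%), 4 lower in goblet-like cells (3.53%), namely Bst2, Ddx60, Ifi44 and Ifit1bl1, and 2 lower in dividing transit-amplifying-like cells (4.6%), namely Bst2 and Ifit1bl1.

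Ifi27 departed from the other members by class. In goblet-like cells it had 35.9 and 55.6 CPM in 2D-1 and 2D-2, against 62.1 and 61.7 CPM in 0D-1 and 0D-2. In tuft-like cells it had 88.7 and 166 CPM in 2D-1 and 2D-2, against 166 and 184 CPM in 0D-1 and 0D-2. In enteroendocrine-like cells it had 405 and 182 CPM in 2D-1 and 2D-2, against 184 and 178 CPM in 0D-1 and 0D-2. In 2D-1, then, this gene was low in the first 2 classes and high in the third, where most other members were high in all 3. With 2D-2 left out, edgeR called it lower in stem-like (0.784% of all genes), goblet-like (22.4%) and tuft-like cells (0.985%).

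To see whether a few cells or many carried the transcripts, each cell was thinned to 2000 UMIs, and 323 cells of 2D-1, 627 of 2D-2, 244 of 0D-1 and 331 of 0D-2 with fewer were left out. The median cell then held 6 UMIs of the 43 genes in 2D-1 and 1 in 2D-2, against 1 in both 0D-1 and 0D-2. The 10th and 90th percentiles were 1 and 12 in 2D-1 and 0 and 5 in 2D-2, against 0 and 4 in 0D-1 and 0 and 5 in 0D-2. Cells with none made up 4.18% of 2D-1 and 28.04% of 2D-2, against 24.1% of 0D-1 and 22.8% of 0D-2. Above the pooled 0D median lay 89.8% of the cells of 2D-1 and 46.6% of 2D-2, against 48.3% of 0D-1 and 49.7% of 0D-2. The distribution of 2D-1 was thus shifted over most of its cells. Free RNA in the droplets adds UMIs to cells and was not removed.

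**Figure D3:**
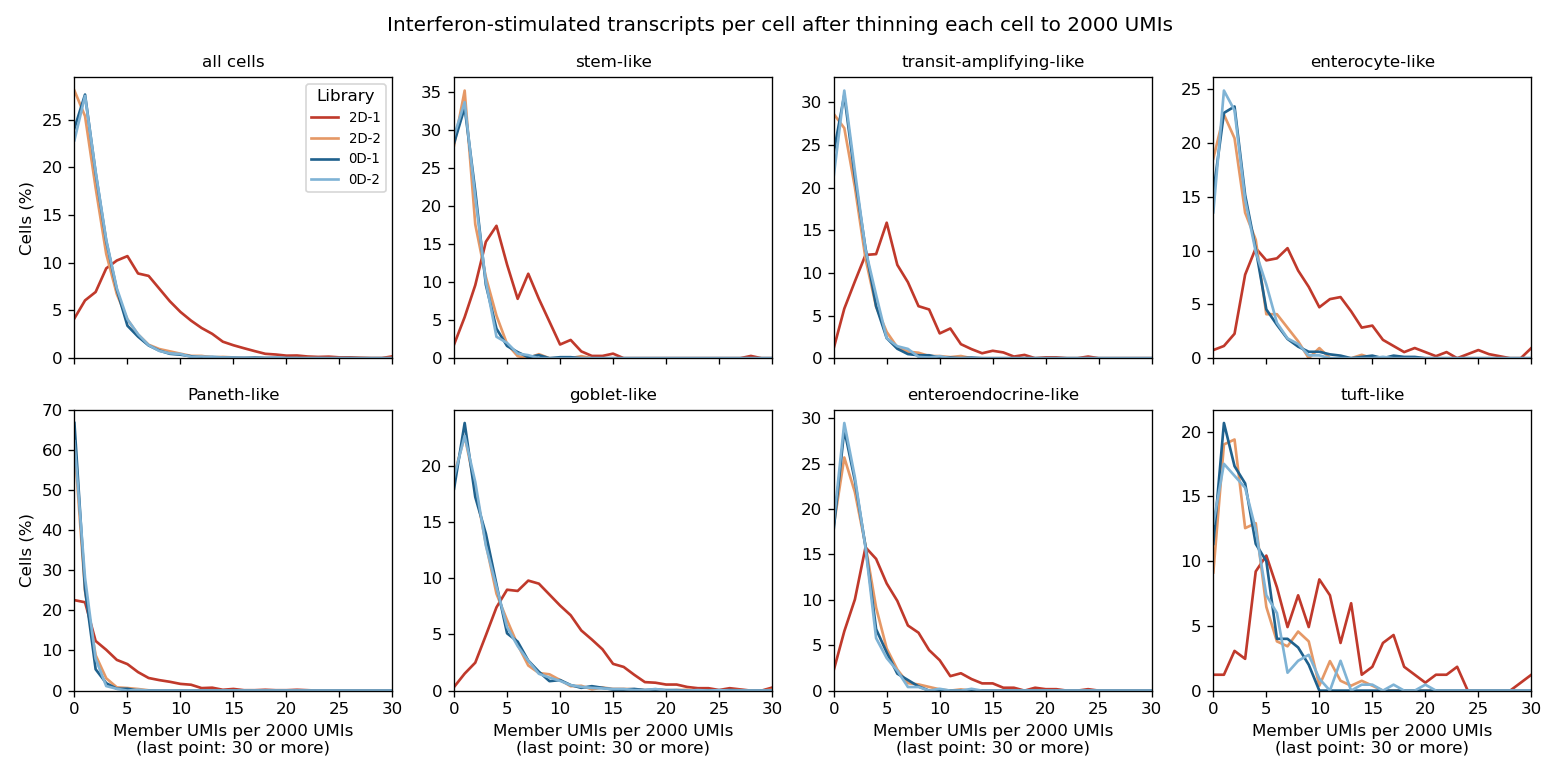
Share of cells (%) by the number of UMIs of the 43 genes in a cell thinned to 2000 UMIs, for all cells and 7 classes, with 1 line per library. The line of 2D-1 lies to the right of the other 3 in all panels, with a median of 6 UMIs against 1 in each of the other libraries over all cells.

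Within classes, the median goblet-like cell held 8 such UMIs in 2D-1 and 2 in 2D-2, against 2 in both 0D libraries. The share of goblet-like cells with none was 0.324% in 2D-1 and 19.1% in 2D-2, against 18.0% in 0D-1 and 19.0% in 0D-2. The median tuft-like cell held 9 in 2D-1 and 3 in 2D-2, against 3 in both 0D libraries, and the median Paneth-like cell 2 in 2D-1 and 0 in 2D-2, against 0 in both 0D libraries. Cells with 10 or more made up 21.7% of 2D-1 and 1.47% of 2D-2, against 1.14% of 0D-1 and 1.18% of 0D-2. Of such cells, goblet-like cells were 47.9% in 2D-1 and 68.5% in 2D-2, against 71.4% in 0D-1 and 71.2% in 0D-2. Goblet-like cells were 27.6% of all thinned cells in 2D-1 and 34.7% in 2D-2, against 27.5% in 0D-1 and 30.4% in 0D-2.

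Cell quality differed between the libraries, so levels were also read within bins of it. Among cells with under 5% mitochondrial UMIs the 43 genes summed to 1897 CPM in 2D-1 and 671 CPM in 2D-2, against 795 CPM in 0D-1 and 861 CPM in 0D-2. Among cells with 10% to 20% they summed to 3698 and 1305 CPM in 2D-1 and 2D-2, against 1040.1 and 1019.9 CPM in 0D-1 and 0D-2. Among cells with over 20000 UMIs they summed to 2228 and 430 CPM in 2D-1 and 2D-2, against 715 and 762 CPM in 0D-1 and 0D-2. Library 2D-1 was the highest in each of these bins. Markers of other cell types were low throughout. The 11 T cell and intraepithelial lymphocyte markers summed to 0.895 CPM in 2D-1 and 2.33 CPM in 2D-2, against 0.941 CPM in 0D-1 and 0.785 CPM in 0D-2, with 2 of the 11 at 0 in 2D-2 and in 0D-2. The 8 myeloid markers summed to 10.7 and 6.84 CPM in 2D-1 and 2D-2, against 8.59 and 8.53 CPM in 0D-1 and 0D-2. The 7 B and plasma cell markers summed to 5.03 and 79.9 CPM in 2D-1 and 2D-2, against 50.6 and 55.0 CPM in 0D-1 and 0D-2, and were low in 2D-1. Their part in the level of the 43 genes was not tested.

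The members also differed between cell classes within a library. Each class was set against the mean of the other classes by edgeR with library as a block, over 28 summed samples. Goblet-like cells had 35 members higher and 3 lower (35.4% and 35.2% of all genes), and enterocyte-like cells 33 higher and 3 lower (35.2% and 39.6%). Tuft-like cells had 23 higher and 3 lower (21.2% and 27.2%). In the other direction, enteroendocrine-like cells had 5 higher and 32 lower (37.7% and 37.4%), stem-like cells 3 and 29 (32.4% and 34.4%), Paneth-like cells 4 and 24 (26.8% and 27.7%), and transit-amplifying-like cells 8 and 19 (35% and 31.5%). The median member stood 0.89 above the other classes on the log2 scale in goblet-like and 0.75 above in enterocyte-like cells, and the median gene -0.05 and -0.11.

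**Figure D4:**
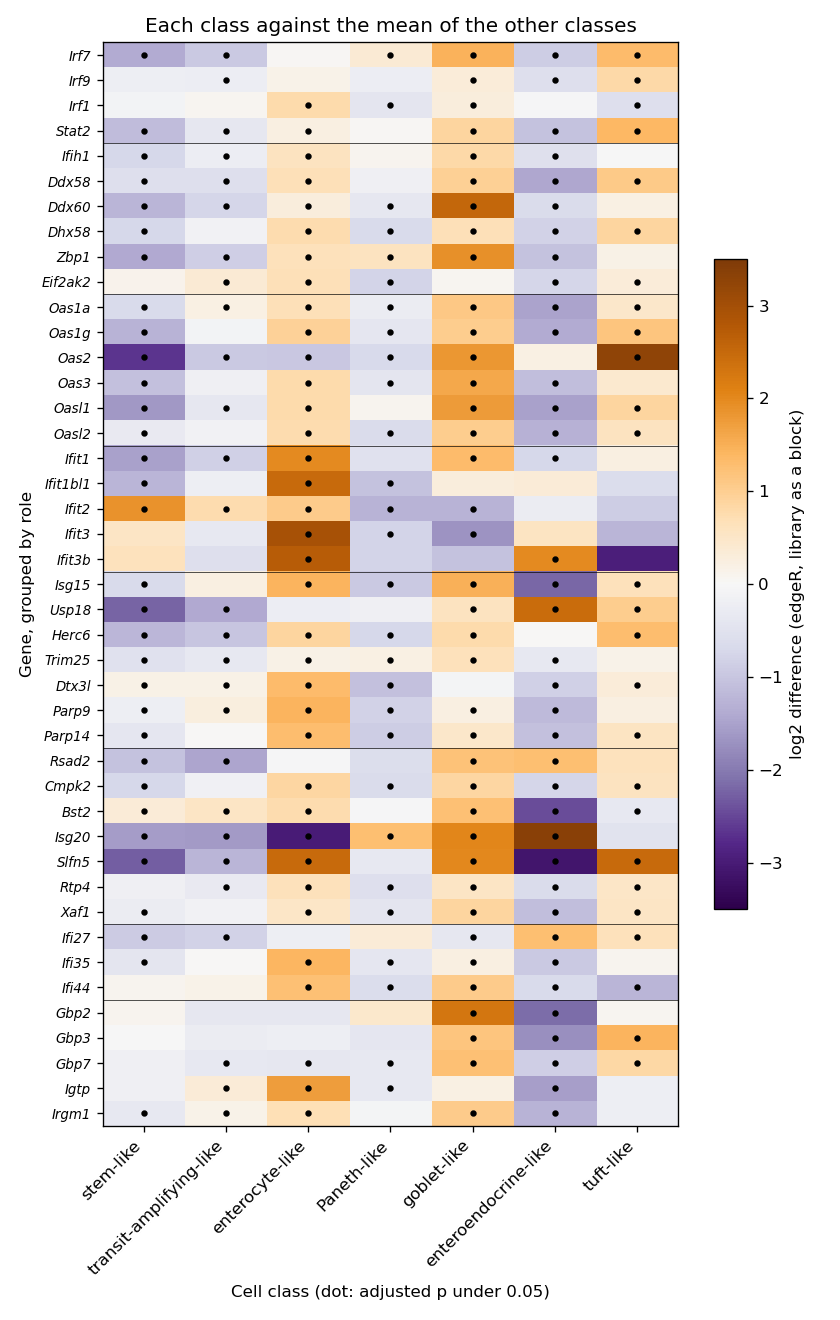
Log2 difference of each class from the mean of the other classes for the 43 genes, from edgeR with library as a block; a dot marks an adjusted p under 0.05. Goblet-like and enterocyte-like columns are mostly orange, with 35 and 33 genes higher, and the enteroendocrine-like and stem-like columns mostly purple, with 32 and 29 genes lower.

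Without 2D-1, goblet-like cells had 37 members higher and 3 lower (35.7% and 33.3% of all genes) and enterocyte-like cells 31 and 6 (34.3% and 37.7%). In the 0D libraries alone, goblet-like cells had 36 members higher and 0 lower (34.5% and 30% of all genes) and enterocyte-like cells 32 higher and 6 lower (33.8% and 35%). The members with the largest differences were Ddx60 (2.52 ± 0.08 log2, SE) and Gbp2 (2.27 ± 0.19) in goblet-like cells and Oas2 (3.28 ± 0.20) and Slfn5 (2.48 ± 0.27) in tuft-like cells. In enterocyte-like cells these were Isg20 (-3.0 ± 0.22) and Ifit3 (2.94 ± 0.19), and in enteroendocrine-like cells Isg20 (3.34 ± 0.11) and Slfn5 (-3.10 ± 0.39). In stem-like cells Oas2 (-2.67 ± 0.30) and Slfn5 (-2.28 ± 0.33) were lower, and in transit-amplifying-like cells Isg20 (-1.59 ± 0.15) and Rsad2 (-1.45 ± 0.30). In Paneth-like cells they were Ifit2 (-1.27 ± 0.35) and Isg20 (1.26 ± 0.14). All had an edgeR adjusted p under 0.05. Isg20 had opposite directions in enteroendocrine-like and enterocyte-like cells, with 123 and 118 CPM in 2D-1 and 2D-2, against 113 and 121 CPM in 0D-1 and 0D-2, in the enteroendocrine class, and 3.52 and 1.22 CPM, against 1.34 and 0.95 CPM, in the enterocyte class. The class with the highest level was goblet-like for 15 members, enterocyte-like for 15, tuft-like for 8, enteroendocrine-like for 4 (Ifi27, Isg20, Rsad2 and Usp18) and stem-like for 1 (Ifit2).

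Genes elsewhere in the pathway were read in all cells for comparison. Of the 10 interferon genes, 8 had no UMI in any library; Ifna2 had 1 UMI in 0D-1, and Ifnk had 3 and 1 UMIs in 2D-1 and 2D-2, against 3 and 2 in 0D-1 and 0D-2. None of the 6 interferon receptors was 2-fold up in 2D-1 (0.647% of all genes), and their median ratio to the 0D mean was 0.983 in 2D-1 and 0.754 in 2D-2. Ifnlr1, the interferon lambda receptor, had 1.82 and 1.22 CPM in 2D-1 and 2D-2, against 1.71 and 1.94 CPM in 0D-1 and 0D-2. Il10rb, its partner chain, had 29.7 and 23.2 CPM, against 27.2 and 30.0 CPM. Ifnar1 had 12.8 and 9.66 CPM, against 11.5 and 12.0 CPM, and Ifnar2 9.97 and 10.6 CPM, against 9.54 and 11.1 CPM, in the same order of libraries. Ifngr1 had 67.7 and 50.5 CPM, against 73.1 and 71.5 CPM, and Ifngr2 37.6 and 27.7 CPM, against 57.9 and 53.5 CPM. Both 2D libraries were below both 0D libraries for 2 of the 6 receptors, Ifngr1 and Ifngr2, and for 38.2% of all genes.

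Among the kinases, Stat and Irf genes, Jak1 had 79.4 and 68.3 CPM in 2D-1 and 2D-2, against 73.2 and 74.1 CPM in 0D-1 and 0D-2, and Irf8 had 88.2 and 61.0 CPM, against 91.7 and 87.6 CPM. The largest comparison list, 42 other interferon-stimulated genes, had 18 of 38 tested at least 2-fold up in 2D-1 (0.647% of all genes) and 0 in 2D-2 (0.214%). Of these, Ifitm3, which blocks virus entry, had 732 and 193 CPM in 2D-1 and 2D-2, against 362 and 351 CPM in 0D-1 and 0D-2. Ly6e had 777 and 276 CPM, against 263 and 298 CPM, and Lgals9 537 and 303 CPM, against 389 and 394 CPM. Among 9 tested interferon-inducible GTPases outside the list, 2 were at least 2-fold up in 2D-1 with 1 CPM added to both levels (0.647% of all genes). All 9 were above both 0D libraries in 2D-1 (38.9% of all genes). Without the added CPM, which weighs on genes of low level, their median ratio to the 0D mean was 2.26 in 2D-1 and 0.787 in 2D-2. Irgm2 had 15.6 and 5.44 CPM, against 6.54 and 6.90 CPM, Iigp1 14.8 and 2.57 CPM, against 2.55 and 4.54 CPM, and Gbp6 7.42 and 2.02 CPM, against 3.21 and 3.46 CPM.

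The sensors and adaptors upstream of interferon (10 tested) and the feedback inhibitors (6 tested) had 0 genes at least 2-fold up in 2D-1 (0.647% of all genes), with median ratios of 1.20 and 1.02. Nlrp6, Tbk1 and Mavs had 106, 20.9 and 17.2 CPM in 2D-1 and 66.6, 14.7 and 16.5 CPM in 2D-2, against 139, 17.8 and 15.2 CPM in 0D-1 and 121, 17.8 and 15.1 CPM in 0D-2. Irf2bp2, Ptpn2 and Pias1 had 61.1, 28.6 and 14.7 CPM in 2D-1 and 48.3, 26.7 and 10.98 CPM in 2D-2, against 63.5, 32.8 and 14.4 CPM in 0D-1 and 60.3, 36.6 and 13.6 CPM in 0D-2. Socs3, a feedback inhibitor of cytokine receptors chosen after its values were seen, had 15.4 and 16.2 CPM in 2D-1 and 2D-2, against 9.63 and 10.03 CPM in 0D-1 and 0D-2. Its edgeR log2 difference was 0.81 ± 0.12 (SE, adjusted p = 0.151), and edgeR called it higher without 2D-1 (adjusted p = 0.00055) and without 2D-2 (adjusted p = 0.0036). Socs1, of the same family, had 5.23 and 3.35 CPM in 2D-1 and 2D-2, against 3.12 and 3.14 CPM in 0D-1 and 0D-2. The 10 genes of MHC class I processing had a median ratio of 1.23 in 2D-1 and 0.678 in 2D-2, and B2m had 504 and 242 CPM in 2D-1 and 2D-2, against 386 and 455 CPM in 0D-1 and 0D-2. The 7 interferon gamma and MHC class II genes had median ratios of 0.476 in 2D-1 and 0.470 in 2D-2, and 5 of the 7 were below both 0D libraries in both, as were 38.2% of all genes. Cd74, the invariant chain, had 272 and 255 CPM, against 475 and 610 CPM. Both 2D libraries were low for this list, whereas the 2D libraries differed for the 43 genes. edgeR called 0 genes of each list over both libraries, and 0 to 5 genes of a list had an unadjusted p under 0.05 (20.3% of all genes).

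**Figure D5:**
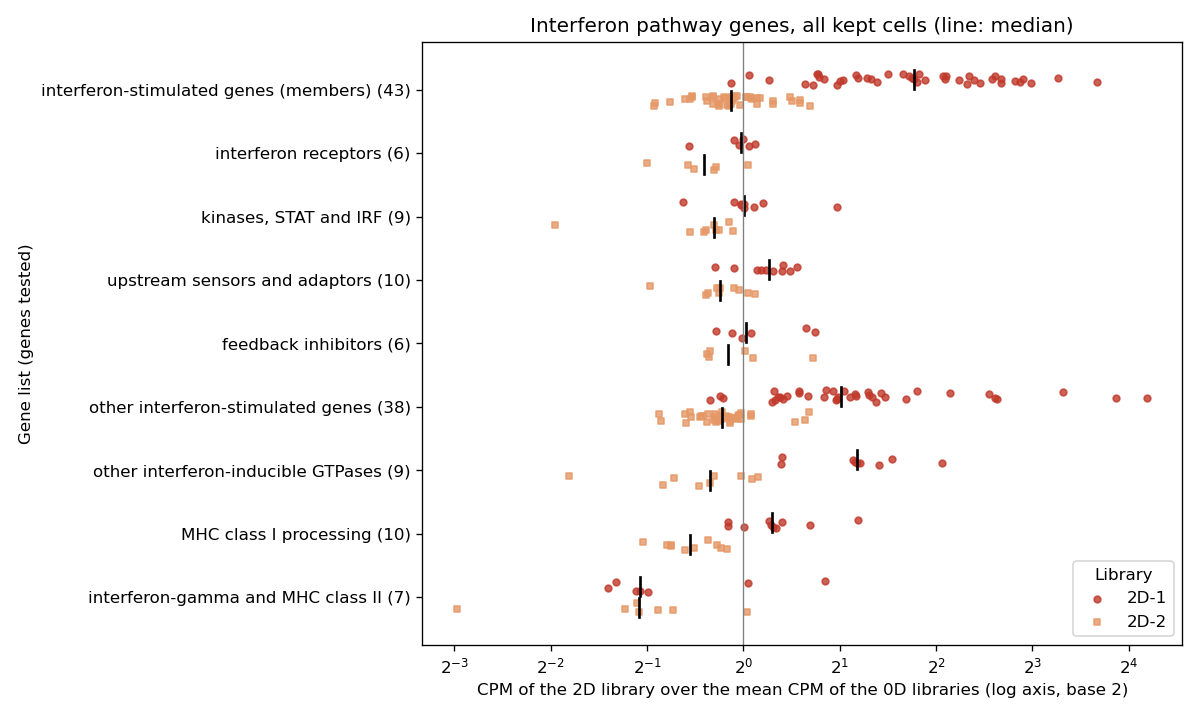
Ratio of each 2D library to the mean of the 0D libraries (log axis, base 2) for the 43 genes and the tested genes of 8 pathway lists, 1 point per gene and library, with a line at the median. The members and the other interferon-stimulated genes lie to the right in 2D-1, receptors and kinases near 1, and the MHC class II list at 0.476 in 2D-1 and 0.470 in 2D-2.

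Neighbouring members did not all move alike. Rsad2 and Cmpk2, transcribed in opposite directions on chromosome 12 from starts 12752 bases apart, stood at 6.38 and 2.83 times the 0D mean in 2D-1. Oas2 and Oas3, 3244 bases apart on chromosome 5, stood at 7.04 and 5.08 times, and Oasl1 and Oasl2, 11005 bases apart, at 3.47 and 4.73 times. The 5 Ifit genes ranged from 5.25 to 12.7 times. The 21 genes with the response-element letters in a window had a median of 4.25 times the 0D mean in 2D-1 (1.20 to 12.7), and the 14 with a window but without them 3.09 times (0.92 to 7.49), so the ranges overlapped. For the palindrome TTCNNNGAA, the 9 genes with it had a median of 2.25 times (0.92 to 5.49). The 26 without it had 4.27 times (1.20 to 12.7), and these ranges overlapped too. Of the 9 genes, 5 were at least 2-fold up in 2D-1, so Irf1 does not stand for them.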

How the data were processed

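Raw UMI counts per gene and cell barcode were deposited by the authors for each of the 4 libraries. Cell Ranger 2.1.1 and build mm10 are named per the submitters' processing notes, whereas the matrices name version 7.0.0 per the file headers. The genes, lists, markers and tests were chosen with earlier results of these data known. A cell was kept with 500 or more genes and a mitochondrial UMI share of up to 20%. Marker levels per 10000 UMIs were log-transformed, scaled to z-scores and averaged per class; a cell was gated when its best score exceeded 0.5 and led by 0.25, and cells with 3 markers of 1 non-epithelial list were set aside. Scrublet (scanpy 1.11.5) scored doublets at an expected rate of 0.08; its automatic threshold made 0 calls in 2D-2, so all cells were kept and a common score of 0.25 was an alternative. Sums of UMIs per library, and per library and class, were tested with edgeR 4.0.16 (R 4.3.3, filterByExpr, TMM, quasi-likelihood F test, Benjamini-Hochberg over all genes, threshold 0.05), with DESeq2 1.42.0 as an alternative. The SE beside an edgeR log2 difference is the size of that difference over the square root of F. The edgeR code was also run on simulated counts. There the changed genes rose alike in both 2D libraries, so that run does not cover 2D libraries that differ as here. Deposited totals were 96124977 to 118874594 UMIs per library. With 2 libraries against 2, an exact permutation test of a single value cannot go below p = 0.333, so none is given. Named with values in every library are the 3 members of each role with the highest mean CPM and, per class contrast, the 2 called members with the largest difference; other names, such as Ifi27 by class, were chosen after their values were seen. A gene of the comparison lists is not reported here. Library numbers are not stated to pair samples. Other alternatives were a mitochondrial limit of 10%, a stricter gate (lead of 0.5), no filter, the 0D libraries alone, thinning to 1000 or 5000 UMIs, a replicate block, and each library left out.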

Additional observations from a re-analysis of the deposited data

How the results depend on the processing

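Where 7 ranges follow, they are for the stem-like, then the dividing transit-amplifying-like, then the enterocyte-like, then the Paneth-like, then the goblet-like, then the enteroendocrine-like, then the tuft-like class. Leaving out each library in turn gave 0 to 4045 genes and 0 to 40 members called in 2D against 0D in all cells. By class it gave 2 to 284, 0 to 1516, 4 to 988, 0 to 277, 30 to 5524, 22 to 218, 58 to 265 genes and 0 to 40, 0 to 40, 0 to 40, 0 to 38, 7 to 40, 0 to 35, 2 to 35 members. The members higher in a class than in the other classes ranged over 3 to 4, 5 to 10, 31 to 33, 3 to 5, 33 to 37, 5 to 7, 17 to 25, and those lower over 27 to 31, 18 to 19, 3 to 6, 18 to 27, 2 to 4, 32 to 32, 2 to 4. These counts are to be read beside the shares of all genes. With no library left out, 21.2% to 37.7% of all genes were higher in a class and 27.2% to 39.6% lower. The summed member CPM of 2D minus 0D ranged over -105 to 1821 in all cells and over -21.0 to 1874, -25.0 to 1890, -31.8 to 3155, 28.4 to 616, -4.96 to 2998, -51.5 to 1668, 269 to 3285 by class, and the member UMIs per 1000 UMIs of a thinned cell over -0.00742 to 2.28. The sums turned negative without 2D-1 in all cells and in each class but the Paneth-like and tuft-like ones.

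DESeq2 called 758 genes and 3 members in all cells, 59 genes in stem-like, 82 in transit-amplifying-like, 106 genes and 1 member in enterocyte-like, 18 genes in Paneth-like and 30 in goblet-like cells in 2D against 0D. With no filter edgeR called 532 genes and 39 members in stem-like, 42 genes in transit-amplifying-like, 0 genes in enterocyte-like, 226 and 34 in Paneth-like, 276 and 29 in goblet-like, 224 and 33 in enteroendocrine-like and 132 and 25 in tuft-like cells in 2D against 0D. A mitochondrial limit of 10% gave 1 gene in Paneth-like and 10 in tuft-like cells. Leaving out cells over the common doublet score gave 6 genes in enterocyte-like cells and 1 in Paneth-like cells. The stricter gate gave 4 genes in tuft-like cells. In the comparison of a class with the other classes, 4 members were higher in transit-amplifying-like cells by DESeq2 and 5 with the stricter gate. In tuft-like cells 15 were higher with the mitochondrial limit of 10%, which left 77 to 194 such cells per library, and 7 were lower with no filter. The shares of all genes under these settings are not given, so these counts say nothing particular to the members. As reported above, 35% of all genes were higher in transit-amplifying-like cells. In tuft-like cells 21.2% were higher and 27.2% lower. In the 0D libraries alone, 6 members were lower in enterocyte-like (35% of all genes) and 0 in goblet-like cells (30%) than in the other classes. The causes were not tested.

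The labels give the groups the same replicate numbers without saying that a number marks a shared animal or day, so the libraries share only a number; deviations of same-numbered libraries correlated at 0.148 over genes in all cells. With the replicate number as a block, edgeR called 0 members in all cells (0% of all genes). It called 9 genes in transit-amplifying-like and 4 in goblet-like cells, with 0 members in both. Higher in 2D were 1 of 37 members tested in stem-like (0.0891% of all genes) and 20 of 38 in Paneth-like cells (0.761%). So were 26 of 39 in enteroendocrine-like (0.971%) and 2 of 37 in tuft-like cells (0.119%). In both directions 125 genes were called in Paneth-like and 175 in enteroendocrine-like cells. With 2 libraries a group, the spread within 2D limits what any of these tests can call.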

Other observations

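Genes outside the 45 listed also stood apart in 2D-1, and these were chosen after their values were seen. Ly6a, a surface protein that interferon induces, had 334 and 17.1 CPM in 2D-1 and 2D-2, against 18.2 and 27.6 CPM in 0D-1 and 0D-2. Trim30a, an interferon-induced Trim protein, had 51.5 and 4.86 CPM in 2D-1 and 2D-2, against 5.20 and 5.11 CPM in 0D-1 and 0D-2. Of the 100 genes at least 2-fold above the 0D mean in 2D-1, 31 were listed members, 20 were in the comparison lists of the pathway and 49 in neither.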
